A study of Rattus norvegicus with 52 samples.

Results

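Endothelial receptor and adhesion genes were followed in the kidneys of 26 male rats of 3 strains. The genes are Kdr, Flt1, Nrp1, Tek, Pecam1, Emcn, Cdh5 and Nos3, and every probe set with one of these 8 symbols or an older alias was taken. Of the 8 genes, 7 were measured, by 11 probe sets, among 13811 genes and 31256 probe sets in all. Cdh5, which encodes VE-cadherin, matched no probe set and was not analysed here. The strains were the congenic strains ET3x2 and ET3x1 (8 rats each) and S (Dahl SS/Jr, 10 rats), which was bred for salt-sensitive hypertension. All 3 strains share the S background, into which a chromosome segment from the R strain was crossed in each congenic strain; where the segments end was not used here. In each congenic strain 4 rats ate a high salt diet (4% NaCl) for 24 hours and 4 stayed on a low salt diet (0.4% NaCl), and 5 S rats were on each diet. All were weaned at 30 days onto low salt, switched at 39 to 41 days and killed at 40 to 42 days of age. One RNA sample from the left kidney of each rat was read on a pair of Affymetrix arrays (RAE230A and RAE230B).

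Capillary endothelium responds to vascular endothelial growth factor (VEGF) through the receptor tyrosine kinases VEGFR-2, the product of Kdr and the main signalling receptor, and VEGFR-1, the product of Flt1, which binds the ligand tightly and limits its supply to VEGFR-2. Neuropilin-1, from Nrp1, is a co-receptor for VEGF and a receptor for class 3 semaphorins, and TIE2, from Tek, is the receptor of the angiopoietins. PECAM-1 and VE-cadherin hold neighbouring endothelial cells together, endomucin (Emcn) is a sialomucin of capillary and venous endothelium, and endothelial nitric oxide synthase (Nos3) makes the nitric oxide that relaxes vessels. In the kidney these genes serve fenestrated glomerular capillaries, whose VEGF-A comes from podocytes, and the capillaries around the tubules.

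Kdr, Nrp1 and Emcn had strain differences past the test, and their RefSeq promoters (assembly GRCr8, 250 bases before to 50 after the gene start, all on the + strand) are printed for that reason. The windows are chr14:32571813-32572112 for Kdr, chr19:73256307-73256606 for Nrp1 and chr2:228564289-228564588 for Emcn. Capitals mark GGAA, the core of sites for ETS transcription factors, or its reverse complement TTCC.
Kdr: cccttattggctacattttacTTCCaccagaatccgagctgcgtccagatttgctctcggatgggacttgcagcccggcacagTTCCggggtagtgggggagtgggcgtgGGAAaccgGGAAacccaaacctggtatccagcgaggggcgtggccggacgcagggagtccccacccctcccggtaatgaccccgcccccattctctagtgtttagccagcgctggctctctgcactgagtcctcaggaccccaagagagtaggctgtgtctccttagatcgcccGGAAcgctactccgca
Nrp1: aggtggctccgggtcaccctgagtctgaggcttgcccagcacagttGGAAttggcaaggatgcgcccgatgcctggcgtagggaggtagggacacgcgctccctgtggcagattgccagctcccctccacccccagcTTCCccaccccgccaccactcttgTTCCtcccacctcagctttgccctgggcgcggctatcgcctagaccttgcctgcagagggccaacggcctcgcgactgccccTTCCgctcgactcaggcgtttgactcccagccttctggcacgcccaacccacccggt
Emcn: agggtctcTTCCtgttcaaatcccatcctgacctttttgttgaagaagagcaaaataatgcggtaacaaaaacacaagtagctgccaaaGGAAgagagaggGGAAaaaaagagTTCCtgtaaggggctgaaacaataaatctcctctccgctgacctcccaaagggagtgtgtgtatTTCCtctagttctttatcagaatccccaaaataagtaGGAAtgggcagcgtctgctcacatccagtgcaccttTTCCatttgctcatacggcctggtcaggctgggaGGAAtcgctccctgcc
The Emcn window held 8 such cores, and 3.9% of the 33469 promoters of the same length held at least as many. Kdr had 5 (29.2% held at least as many) and Nrp1 4 (46.8%), and the median promoter held 3. At least 1 core was present in 95.8% of promoters. GATA, read on both strands, occurred once in each of the 3 windows, as in 60.5% of promoters at least once. A GGAA core cannot overlap another or a GATA, whereas GATA and its reverse complement can share letters and were both counted. Promoters of 5 of the 8 genes were in the table, and Flt1 and Nos3 held 3 and 4 GGAA cores. A match describes letters in a window only.

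The 7 measured genes lie on chromosomes 14 (Kdr), 12 (Flt1), 19 (Nrp1), 5 (Tek), 10 (Pecam1), 2 (Emcn) and 4 (Nos3). Signals are given as deposited, on the log2 scale. Because probe sets differ in efficiency, the level of one probe set was not set against that of another gene. Probe sets with a mean at or above the median of their chip were tested, which kept 6 of the 11 (1 each of Kdr, Tek, Pecam1 and Emcn and both of Nrp1). The tested probe sets of Kdr, Emcn and Nrp1 (1370570_at) ranked at the 86.8th, 89.1st and 89.5th percentiles of RAE230A, and Tek at the 94.0th of RAE230B. Nrp1 1373577_at and Pecam1 were dimmer, at the 68.2nd and 56.3rd percentiles of RAE230A. The other 5 (3 of Flt1, 1 of Nos3 and the second of Kdr) ranked between the 3.18th and the 27.7th percentile, and their changes come from the same fit run without the filter. A whole kidney holds many cell types, and the genes of proximal tubule (Slc34a1, 13.18), thick ascending limb (Umod, 13.32) and erythroid cells (Hbb, 13.80) were among the brightest. Array medians ran from 7.47 to 7.52 on RAE230A and from 6.34 to 6.40 on RAE230B. Two-sided differences between groups were tested with limma, with adjustment over all 15473 tested probe sets, and an adjusted p below 0.05 is called here a change; each is given as a log2 difference ± the standard error of the fit. The p-values measure the spread between rats, and the number of arrays limits the precision.

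Kdr, by its tested probe set, was lower in both congenic strains than in S, on either diet. Its second, dim probe set was higher in ET3x1 than in S in the fit without the filter. Nrp1 was lower by 1 of its probe sets in both strains, Emcn was lower in ET3x1, and Tek and Pecam1 were called for salt and not for strain. In ET3x2 against S, 2 of the 6 tested probe sets were called, both lower (Kdr and Nrp1 1373577_at), where 28.5% of all tested probe sets were called and 14.0% called lower. In ET3x1 against S 4 of 6 were called, all lower (Kdr, both Nrp1 probe sets and Emcn), where 32.3% were called and 16.0% called lower. ET3x2 against ET3x1 gave 1 call of 6, Nrp1 1373577_at, lower in ET3x2, where 11.1% were called and 5.14% called lower. High against low salt over the 3 strains gave 3 of 6, all lower (Nrp1 1370570_at, Pecam1 and Tek), where 14.5% were called and 4.86% called lower. The median change of the 6 was -0.11 in ET3x2 and -0.26 in ET3x1 against S, beside 0.01 and -0.00 over all tested probe sets. With 6 probe sets of 5 genes, 2 of them from Nrp1, these shares describe the members only.

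**Figure D1:**
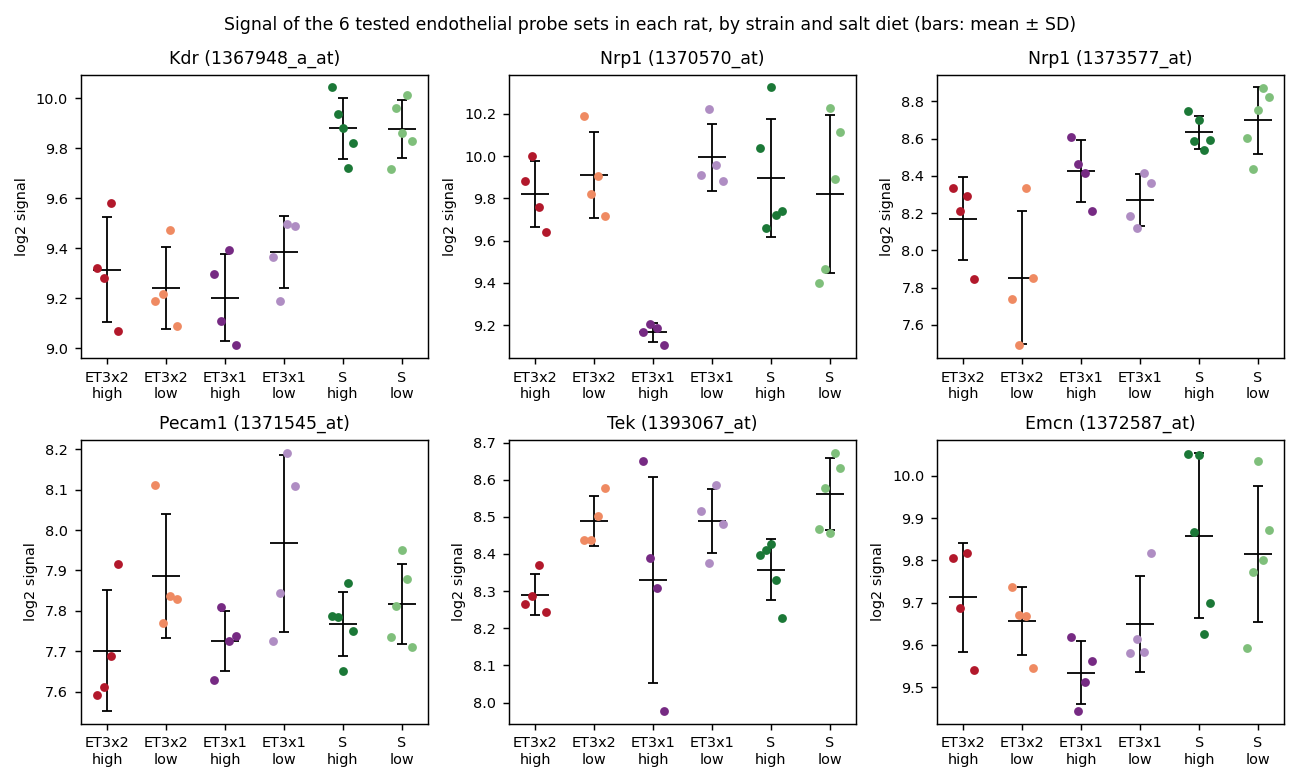
Log2 signal of the 6 tested probe sets (vertical axes) in each rat, by strain and salt diet (horizontal axes); points are rats and bars the mean ± SD of 4 or 5 rats. Every congenic rat lies below every S rat for Kdr, between 9.01 and 9.58 against 9.72 to 10.04, and for Nrp1 1370570_at the 4 ET3x1 rats on high salt lie below the other groups.

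Kdr, read by probe set 1367948_a_at, stood at 9.32, 9.28, 9.58 and 9.07 in the 4 ET3x2 rats on high salt and at 9.19, 9.22, 9.47 and 9.09 in those on low salt. ET3x1 rats had 9.30, 9.11, 9.39 and 9.01 on high salt and 9.36, 9.19, 9.50 and 9.49 on low salt. S rats had 10.04, 9.94, 9.88, 9.72 and 9.82 on high salt and 9.72, 9.96, 9.86, 10.01 and 9.83 on low salt. The 16 congenic rats and the 10 S rats did not overlap, with the congenic rats lower, as 39 of the tested probe sets (0.252%) showed; for ET3x1 alone against S the share was 1.01%. Strain means were 9.28 ± 0.18 in ET3x2, 9.29 ± 0.18 in ET3x1 (SD, n = 8 each) and 9.88 ± 0.11 in S (SD, n = 10).

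Against S, the Kdr signal fell by 34.1% in ET3x2 (-0.60 ± 0.07, limma adjusted p = 8.20e-06) and fell by 33.3% in ET3x1 (-0.58 ± 0.07, adjusted p = 5.24e-06). The comparisons share the S rats. On high salt the differences were -0.57 ± 0.10 in ET3x2 (adjusted p = 0.00385) and -0.68 ± 0.10 in ET3x1 (adjusted p = 0.000160), and on low salt -0.64 ± 0.10 (adjusted p = 0.000215) and -0.49 ± 0.10 (adjusted p = 0.00125). ET3x2 and ET3x1 differed from each other by -0.02, with a 95% interval from -0.17 to 0.14. Among the 6 group means in order of level, the step between the ET3x1 low salt and the S low salt mean (0.49) was the one larger than the within-group SD, and neighbouring means of the 4 congenic groups lay within their spread. Salt moved Kdr by -0.04 over the 3 strains (95% interval -0.16 to 0.08), and by 0.07 in ET3x2, -0.18 in ET3x1 and 0.00 in S, none of them called. The call of ET3x2 against S on high salt was lost when S rats 1 and 2 on high salt, which stood apart in the spike-in controls, were both left out (-0.49, adjusted p = 0.0634).

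In RNA of a whole kidney, fewer endothelial cells and less Kdr RNA per cell cannot be told apart. Markers of podocytes, the cells that face the glomerular capillaries, were like Kdr lower in the congenic strains than in S. The mean of the 5 measured podocyte markers ran from 7.31 to 7.50 in ET3x2 rats on high salt, from 7.44 to 7.70 in ET3x2 on low salt, from 7.23 to 7.38 in ET3x1 on high salt and from 7.35 to 7.57 in ET3x1 on low salt. In S rats it ran from 7.66 to 7.92 on high salt and from 7.76 to 7.86 on low salt. All 3 tested podocyte genes (Podxl, Ptpro and Synpo) were lower in both congenic strains. Nphs1, the gene of nephrin, and Wt1 were dim, at the 10.6th and 34.7th percentiles of their chip. With salt the markers and Kdr parted. Over the 3 strains 2 of the 3 tested podocyte genes were called lower on high salt (median -0.16), where 4.86% of tested probe sets were, and Kdr was not called. The part of podocytes in the Kdr difference was not tested.

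The second Kdr probe set, 1397868_at, was dim (27.5th percentile of RAE230B) and did not follow the first. Its values were 5.43, 5.56, 5.49 and 5.32 in ET3x2 rats on high salt and 5.44, 5.37, 5.49 and 5.47 on low salt. In ET3x1 rats they were 5.68, 5.62, 5.78 and 6.04 on high salt and 5.85, 5.45, 5.44 and 5.68 on low salt. In S rats they were 5.43, 5.53, 5.69, 5.30 and 5.32 on high salt and 5.52, 5.49, 5.49, 5.41 and 5.54 on low salt. ET3x1 rats on high salt held the highest mean, with overlap between strains. In the unfiltered fit, in which 30.4% of probe sets were called for ET3x1 against S and 14.2% called higher, this probe set was higher in ET3x1 (0.22 ± 0.06, adjusted p = 0.00919). It was lower in ET3x2 than in ET3x1 (-0.25 ± 0.07, adjusted p = 0.0190, where 9.84% were called and 3.84% called lower), and ET3x2 and S differed by -0.03. The 2 Kdr probe sets thus gave opposite signs in ET3x1.

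Flt1, the gene of the ligand-trapping receptor VEGFR-1, had 3 probe sets, all dim. The dimmest, 1377113_at, had 4.78, 4.82, 4.78 and 4.78 in ET3x2 rats on high salt and 4.83, 4.77, 4.87 and 4.82 on low salt. ET3x1 rats had 4.83, 4.83, 4.79 and 4.77 on high salt and 4.72, 4.69, 4.81 and 4.82 on low salt. S rats had 4.87, 4.88, 4.83, 4.91 and 4.96 on high salt and 5.003, 5.02, 4.86, 5.003 and 4.89 on low salt. The congenic ranges reached into the lower S values. This probe set was lower in ET3x2 (-0.12 ± 0.03, adjusted p = 0.00346, where 24.8% of probe sets were called without the filter and 11.5% called lower) and in ET3x1 (-0.14 ± 0.03, adjusted p = 0.000535, where 16.2% were called lower). It ranked at the 3.18th percentile of the chip, among the dimmest probe sets.

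Neither of the other Flt1 probe sets was called lower. Probe set 1370492_a_at was higher in ET3x1 than in S (0.09 ± 0.03, adjusted p = 0.0427), with group means from 5.27 to 5.45. Probe set 1369087_at, the brightest of the 3, had group means from 6.21 to 6.44 and differed from S by -0.09 in ET3x2 (95% interval -0.21 to 0.04) and by -0.12 in ET3x1 (-0.25 to 0.00), neither called. With salt over the 3 strains 0 of the 3 Flt1 probe sets were called in the unfiltered limma fit, in which 9.37% of probe sets were, and 1 (1369087_at, 0.11) had an unadjusted p below 0.05.

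**Figure D2:**
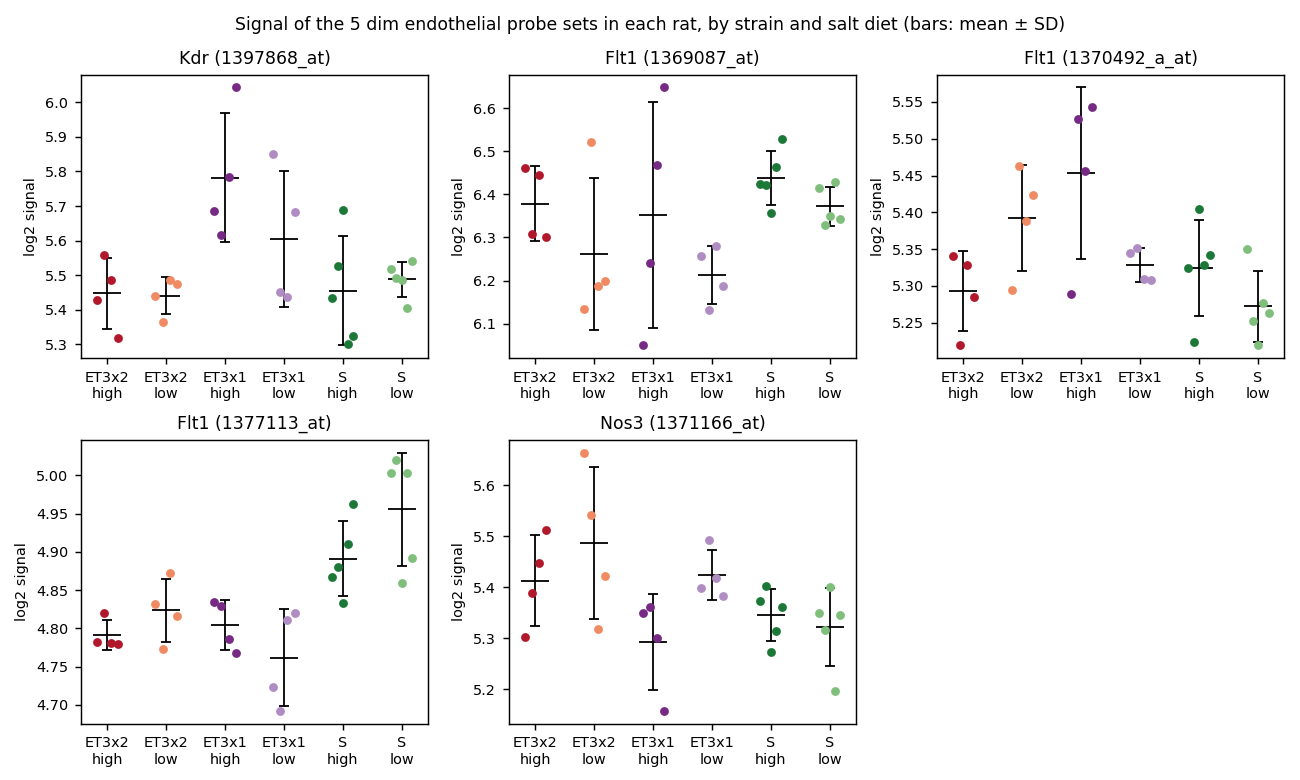
Log2 signal of the 5 dim probe sets (vertical axes) in each rat, by strain and salt diet (horizontal axes); points are rats and bars the mean ± SD of 4 or 5 rats. The strain differences are small beside those of the brighter Kdr probe set: for Flt1 1377113_at the S rats lie between 4.83 and 5.02 and the congenic rats between 4.69 and 4.87.

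Nrp1, the co-receptor, had 2 probe sets on RAE230A, and both were tested. Probe set 1373577_at had 8.33, 8.21, 8.29 and 7.85 in ET3x2 rats on high salt and 7.74, 7.49, 8.34 and 7.85 on low salt. In ET3x1 rats it had 8.61, 8.46, 8.42 and 8.21 on high salt and 8.18, 8.12, 8.42 and 8.36 on low salt. In S rats it had 8.75, 8.59, 8.70, 8.54 and 8.59 on high salt and 8.60, 8.44, 8.75, 8.87 and 8.82 on low salt. All 8 ET3x2 rats lay below all 10 S rats, with 0.666% of tested probe sets lower in that way (7.10% within low salt and 5.40% within high salt), and the ET3x1 rats overlapped both. Means were 8.01 ± 0.32 in ET3x2, 8.35 ± 0.16 in ET3x1 (SD, n = 8 each) and 8.67 ± 0.14 in S (SD, n = 10).

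This probe set fell by 36.4% in ET3x2 (-0.65 ± 0.09, adjusted p = 2.79e-05) and fell by 19.8% in ET3x1 (-0.32 ± 0.09, adjusted p = 0.00770) against S. Against ET3x1 it fell by 20.8% in ET3x2 (-0.34 ± 0.09, adjusted p = 0.0211), a call that was lost without ET3x2 rat 4 on high salt (-0.28, adjusted p = 0.0546) or without ET3x2 rat 2 on low salt (-0.28, adjusted p = 0.0532). On low salt the differences from S were -0.84 ± 0.12 in ET3x2 (adjusted p = 0.000129) and -0.43 ± 0.12 in ET3x1 (adjusted p = 0.0130). On high salt they were -0.46 ± 0.12 in ET3x2 (adjusted p = 0.0354) and -0.21 ± 0.12 in ET3x1 (adjusted p = 0.265). Salt itself moved it by 0.14 over the 3 strains (95% interval -0.01 to 0.29), by 0.32 in ET3x2 and by 0.15 in ET3x1, and by -0.06 in S, none of them called. The high salt call of ET3x2 was lost without any 1 of S rats 1, 2 and 3 or ET3x2 rats 2 and 4 on high salt (adjusted p from 0.0629 to 0.163), and the low salt call of ET3x1 without ET3x1 rat 2 on low salt (adjusted p = 0.0568).

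The brighter Nrp1 probe set, 1370570_at, had 9.88, 10.00, 9.76 and 9.64 in ET3x2 rats on high salt and 10.19, 9.82, 9.91 and 9.72 on low salt. ET3x1 rats had 9.17, 9.21, 9.19 and 9.10 on high salt and 9.91, 10.22, 9.96 and 9.88 on low salt. S rats had 10.04, 9.66, 10.32, 9.72 and 9.74 on high salt and 9.40, 9.47, 10.23, 9.89 and 10.11 on low salt. The 4 ET3x1 rats on high salt lay close together and below every other rat. Group means were 9.82 ± 0.16 and 9.91 ± 0.20 in ET3x2 on high and low salt, 9.17 ± 0.04 and 9.99 ± 0.16 in ET3x1 (SD, n = 4 each), and 9.90 ± 0.28 and 9.82 ± 0.37 in S (SD, n = 5 each). In order of level, no neighbouring means among the other 5 groups differed beyond their spread.

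In ET3x1 on high salt this signal fell by 43.6% against low salt (-0.83 ± 0.15, adjusted p = 0.000601). It was the 1 call among the 6 probe sets there, where 15.9% of tested probe sets were called, 8.90% called lower, and 11.3% were lower with no overlap between the diets. In S the salt difference was 0.08 (95% interval -0.20 to 0.36) and in ET3x2 -0.09 (-0.40 to 0.23). The salt response of ET3x1 differed from that of S by -0.91 ± 0.21 (adjusted p = 0.0135), 1 call of 6 where 5.49% were called and 4.08% called lower. That of ET3x2 minus that of ET3x1 was 0.74 ± 0.22 (adjusted p = 0.114). On high salt the probe set fell by 39.7% in ET3x1 against S (-0.73 ± 0.15, adjusted p = 0.00204) and was 57.4% higher in ET3x2 than in ET3x1 (0.65 ± 0.15, adjusted p = 0.00990). Averaged over both diets, ET3x2 and S differed by 0.01 (95% interval -0.20 to 0.22), and ET3x1 was lower than S (-0.28 ± 0.10, adjusted p = 0.0393), a call lost in 11 of the 26 fits that left out 1 rat (adjusted p from 0.0544 to 0.0827). On low salt ET3x1 stood 0.17 above S, which was not called. The fall with salt over the 3 strains (-0.28 ± 0.09, adjusted p = 0.0272) likewise averaged -0.83 in ET3x1 with values near 0 in the other strains, and it was lost without ET3x1 rat 2 (adjusted p = 0.0575) or ET3x2 rat 1 (adjusted p = 0.0556) on low salt.

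The 3' to 5' Gapdh signal ratio of an array, a measure of RNA integrity and labelling, was lowest in the same group. On RAE230A it averaged 0.594 ± 0.0265 (log2) in ET3x1 on high salt, against 0.877 ± 0.0994 in ET3x1 on low salt (SD, n = 4 each) and 0.812 ± 0.0526 in S on high salt (SD, n = 5). The first difference had an exact permutation p = 0.0286, the smallest that 4 against 4 rats allow, and the second p = 0.00794 (both two-sided, adjusted p = 0.0923 over 42 such tests). With this ratio as a covariate the salt difference of Nrp1 1370570_at in ET3x1 was -0.69 (adjusted p = 0.235) and its contrast with S -0.78 (adjusted p = 0.239), so that neither was called. Over all tested probe sets, calls fell from 2457 to 6 for salt in ET3x1 and from 850 to 27 for that contrast. The high salt calls of Nrp1 1370570_at were lost too, for ET3x1 against S (-0.63, adjusted p = 0.106) and for ET3x2 against ET3x1 (0.58, adjusted p = 0.0915). The ratio and the ET3x1 high salt group go together, so their parts in the Nrp1 result cannot be told apart. The spike-in difference bioD minus bioC was also highest in ET3x1 on high salt, at 3.08 ± 0.150, against 2.37 ± 0.702 in S on high salt, where rats 1 and 2 had 1.65 and 1.55. With bioD minus bioC as a covariate, 2 calls of Nrp1 1370570_at were lost. They were ET3x2 against ET3x1 on high salt (0.66, adjusted p = 0.0597) and the salt response of ET3x1 minus that of S (-0.93, adjusted p = 0.102).

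Because the 2 Nrp1 probe sets moved differently, their difference was taken within each rat (1370570_at minus 1373577_at), a measure chosen after their values were seen. It averaged 1.65 ± 0.17 and 2.06 ± 0.41 in ET3x2 on high and low salt, 0.74 ± 0.14 and 1.72 ± 0.27 in ET3x1 (SD, n = 4 each), and 1.26 ± 0.22 and 1.12 ± 0.26 in S (SD, n = 5 each). Over both diets it was 0.66 larger in ET3x2 than in S (1.85 and 1.19, exact permutation test, two-sided, p = 0.000183, adjusted p = 0.00165 over 9 comparisons), and between 0.57 and 0.72 when each of the 18 rats was left out. On low salt it exceeded S by 0.94 in ET3x2 (exact p = 0.00794, adjusted p = 0.0238) and by 0.60 in ET3x1 (exact p = 0.0159, adjusted p = 0.0357). On high salt it was 0.39 larger in ET3x2 than in S, which did not pass after adjustment (exact p = 0.0397, adjusted p = 0.0595). There the ET3x1 mean was below the S mean, 0.741 against 1.26 (-0.52, exact p = 0.00794, adjusted p = 0.0238). The ET3x1 shifts on the 2 diets had opposite signs, and over both diets ET3x1 and S differed by 0.04 (exact p = 0.842). High against low salt changed it by -0.98 in ET3x1, which did not pass after adjustment (exact p = 0.0286, adjusted p = 0.0514). The change was -0.41 in ET3x2 (exact p = 0.114) and 0.14 in S (exact p = 0.381). ET3x1 on high salt was also the group with the lowest Gapdh ratio, whose part in this measure was not tested. The stretches of the Nrp1 transcript that the probe sets read were not analysed here.

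**Figure D3:**
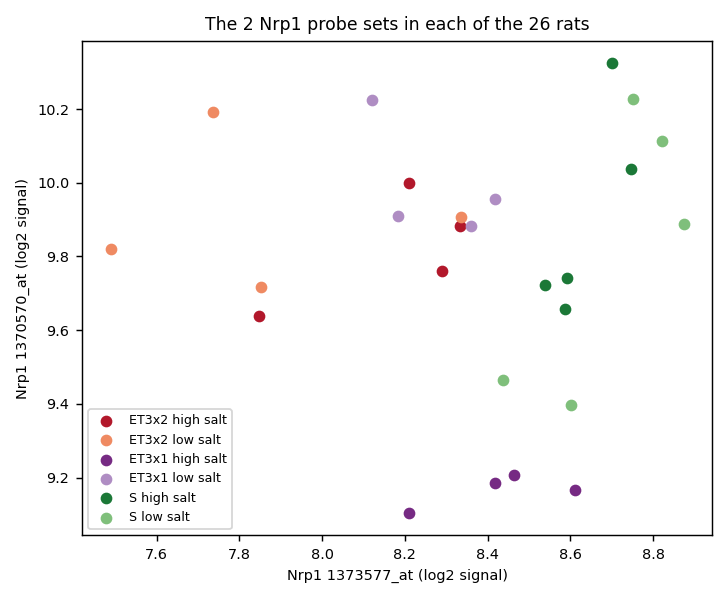
Log2 signal of Nrp1 1370570_at (vertical axis) against Nrp1 1373577_at (horizontal axis) in the 26 rats, coloured by strain and diet. ET3x2 rats lie to the left at 7.49 to 8.34, S rats to the right at 8.44 to 8.87, and the 4 ET3x1 rats on high salt lie at the bottom at 9.10 to 9.21.

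Tek, the angiopoietin receptor gene, was read by 1393067_at on RAE230B. It had 8.26, 8.29, 8.37 and 8.24 in ET3x2 rats on high salt and 8.44, 8.44, 8.50 and 8.58 on low salt. ET3x1 rats had 8.65, 8.39, 8.31 and 7.98 on high salt and 8.52, 8.38, 8.58 and 8.48 on low salt, and S rats had 8.40, 8.41, 8.43, 8.33 and 8.23 on high salt and 8.47, 8.58, 8.46, 8.67 and 8.63 on low salt. The diets did not overlap in ET3x2, where 2.74% of tested probe sets were lower on high salt in that way, or in S, where 1.12% were. They overlapped in ET3x1, where rat 1 on high salt held the second highest value of the 26. Over the 3 strains Tek fell by 12.1% on high against low salt (-0.19 ± 0.05, adjusted p = 0.0183). The differences were -0.20 ± 0.10 in ET3x2, -0.16 ± 0.10 in ET3x1 and -0.20 ± 0.09 in S, none called within 1 strain. The 3 low salt groups held the higher means, and the step between ET3x2 on low salt and S on high salt (0.13) was the one beyond the spread. Strain differences from S were -0.07 in ET3x2 (95% interval -0.20 to 0.06) and -0.05 in ET3x1 (-0.18 to 0.08). The salt call was lost with the Gapdh ratio (-0.20, adjusted p = 0.401) or the beta-actin ratio (-0.19, adjusted p = 0.179) as a covariate. With the Gapdh ratio, salt calls among all tested probe sets fell from 2239 to 25. On RAE230B, which read Tek, this ratio averaged 0.589 on high and 0.766 on low salt in ET3x2. In ET3x1 it averaged 0.422 and 0.785. Both differences had exact permutation p = 0.0286 (two-sided, adjusted p = 0.0923 over 42 tests). In S the means were 0.661 and 0.726 (exact p = 0.373). The part of the ratio in the Tek difference was not tested apart from diet.

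Pecam1, the gene of the junction protein PECAM-1, had 7.59, 7.61, 7.69 and 7.92 in ET3x2 rats on high salt and 8.11, 7.77, 7.84 and 7.83 on low salt. ET3x1 rats had 7.63, 7.81, 7.72 and 7.74 on high salt and 7.73, 7.84, 8.19 and 8.11 on low salt. S rats had 7.79, 7.78, 7.65, 7.87 and 7.75 on high salt and 7.74, 7.81, 7.95, 7.88 and 7.71 on low salt. All groups overlapped, and no neighbouring group means differed beyond their spread. Pecam1 did not differ from S by a call in ET3x2 (0.00, 95% interval -0.13 to 0.13) or in ET3x1 (0.05, -0.07 to 0.18), and a difference as large as that of Kdr lies outside both intervals. The Pecam1 probe set was dimmer than that of Kdr (56.3rd against 86.8th percentile), and whether both respond alike was not tested. On high against low salt over the 3 strains Pecam1 fell by 10.4% (-0.16 ± 0.05, adjusted p = 0.0368), with -0.18 in ET3x2, -0.24 in ET3x1 and -0.05 in S, none called. The pooled call was lost in 11 of the 26 fits that left out 1 rat (adjusted p from 0.0547 to 0.0829), namely ET3x2 rats 1, 2 and 3 on high and 1 on low salt, ET3x1 rats 1 and 3 on high and 3 and 4 on low salt, and S rats 3 on high and 3 and 4 on low salt. It was also lost with the Gapdh ratio (-0.13, adjusted p = 0.663) or the beta-actin ratio (-0.17, adjusted p = 0.181) as a covariate. The same happened without the filter (adjusted p = 0.0501) and without S rats 1 and 2 on high salt (0.0607). On RAE230A, which read Pecam1, the Gapdh ratio averaged 0.747 on high and 0.948 on low salt in ET3x2 (exact permutation p = 0.0571). In ET3x1 it averaged 0.594 and 0.877 (exact p = 0.0286), and in S 0.812 and 0.827 (exact p = 0.706). The part of the ratio in the Pecam1 difference was not tested apart from diet.

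Emcn, the gene of the sialomucin endomucin, had 9.80, 9.69, 9.82 and 9.54 in ET3x2 rats on high salt and 9.74, 9.67, 9.67 and 9.55 on low salt. ET3x1 rats had 9.62, 9.44, 9.51 and 9.56 on high salt and 9.58, 9.61, 9.58 and 9.82 on low salt. S rats had 10.05, 9.87, 10.05, 9.63 and 9.70 on high salt and 9.59, 9.77, 10.04, 9.80 and 9.87 on low salt. The strains overlapped, although on high salt all ET3x1 rats lay below all S rats, as they did for Kdr and Nrp1 1370570_at and as 9.66% of tested probe sets showed. Emcn fell by 15.6% in ET3x1 against S (-0.24 ± 0.06, adjusted p = 0.00561), and no left-out rat or other setting ended that call. In ET3x2 the difference was -0.15 ± 0.06 and missed the threshold (adjusted p = 0.0768), which it passed after quantile normalization (-0.16, adjusted p = 0.0204) or without any 1 of S rats 4 and 5 on high salt and S rat 1 on low salt (adjusted p from 0.0325 to 0.0496). ET3x2 and ET3x1 differed by 0.09 (95% interval -0.05 to 0.23), so the strains were not shown to differ from each other. On high salt alone Emcn fell by 20.1% in ET3x1 against S (-0.32 ± 0.09, adjusted p = 0.0190), a call lost without any 1 of ET3x1 rats 2 and 3 or S rats 1 and 3 on high salt (adjusted p from 0.0522 to 0.0565). It was also lost with the Gapdh ratio (adjusted p = 0.158), bioD minus bioC (0.162) or the beta-actin ratio (0.0890) as a covariate, and without S rats 1 and 2 on high salt (0.114). Salt moved Emcn by -0.00 over the 3 strains (95% interval -0.11 to 0.11).

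Nos3, the gene of endothelial nitric oxide synthase, was dim, at the 10.1st percentile of its chip. It had 5.30, 5.39, 5.45 and 5.51 in ET3x2 rats on high salt and 5.66, 5.54, 5.32 and 5.42 on low salt. In ET3x1 rats it had 5.35, 5.36, 5.30 and 5.16 on high salt and 5.40, 5.49, 5.42 and 5.38 on low salt, and in S rats 5.37, 5.40, 5.27, 5.31 and 5.36 on high salt and 5.35, 5.32, 5.40, 5.20 and 5.35 on low salt. Groups next to each other in order of level overlapped, and their means did not differ beyond the spread. In ET3x1 all rats on high salt lay below all on low salt, as 11.3% of the brighter, tested probe sets showed. That salt difference was not called in the unfiltered fit (-0.13 ± 0.06, adjusted p = 0.187). In the same fit Nos3 was 8.40% higher in ET3x2 than in S (0.12 ± 0.04, adjusted p = 0.0399, where 13.3% were called higher), whereas ET3x1 differed from S by 0.02 (95% interval -0.06 to 0.11).

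**Figure D4:**
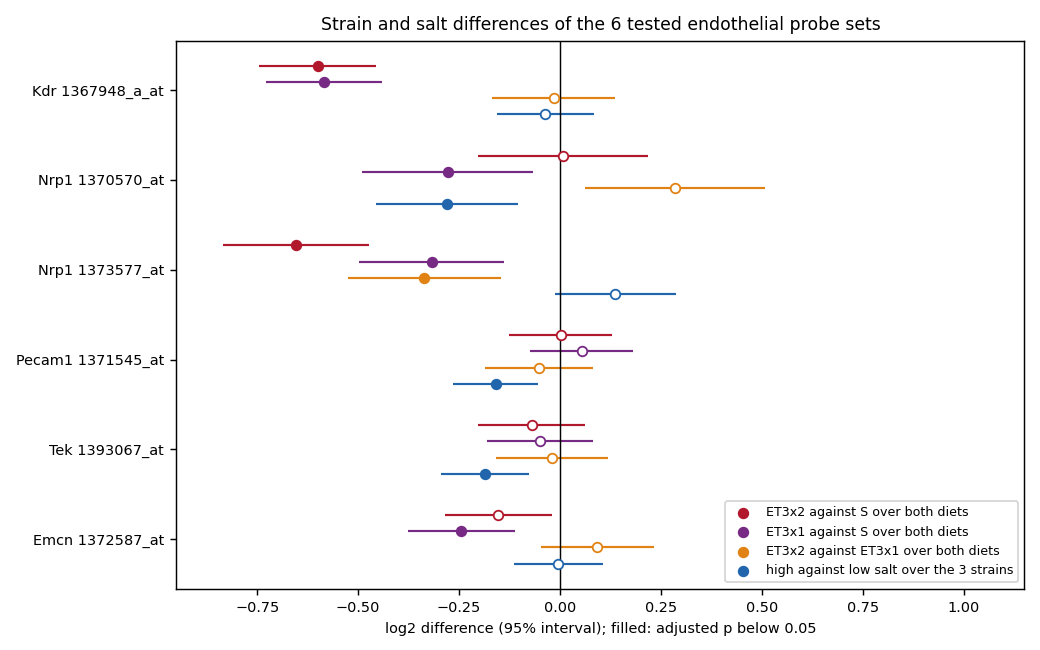
Log2 differences (horizontal axis) with 95% intervals of the 6 tested probe sets (vertical axis) for 4 comparisons; filled points passed an adjusted p of 0.05 in limma. The intervals of Kdr against S lie between -0.75 and -0.44 in both congenic strains, and the salt intervals of Nrp1 1370570_at, Pecam1 and Tek lie below 0.

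Calls within single diets and in contrasts of salt responses were as follows. ET3x2 against S gave 2 of 6 lower on high salt, where 4.25% of tested probe sets were called and 2.97% called lower, and 2 on low salt, where 18.2% were called and 8.71% called lower. ET3x1 against S gave 3 of 6 lower on high salt (14.5% called, 9.63% lower) and 2 on low salt (26.8% called, 10.1% lower). ET3x2 against ET3x1 gave 1 higher on high salt (9.22% called, 5.49% higher), and 0 on low salt (2.73% called), where 1 had an unadjusted p below 0.05 in limma. High against low salt gave 0 calls in limma in S (2.78% called, 1 member with an unadjusted p below 0.05) and 0 in ET3x2 (0.304% called, 2 members with an unadjusted p below 0.05). The salt response of ET3x2 gave 0 calls in limma against that of S (0.0194% called) and 0 against that of ET3x1 (0.304% called), with 1 member at an unadjusted p below 0.05 in each.

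Other genes of these pathways, in 8 lists with 90 genes, were read by the brightest probe set of each, and 56 were tested. In ET3x2 5 were higher and 24 lower than in S (51.8% called, beside 28.5% of all tested probe sets), and in ET3x1 4 higher and 22 lower (46.4% called, beside 32.3%), with list medians of -0.09 in each. Over all tested probe sets 14.0% were called lower in ET3x2 and 16.0% in ET3x1. Because the lists were chosen with earlier results of these data known, and each gene is read by its brightest probe set, these shares describe the lists only. The genes named below are a part of those called. Some genes called higher are counted without a name, in the semaphorin, junction, nitric oxide synthase and further endothelial lists. Among the 2 tested ligands, Vegfa, whose product is the ligand of VEGFR-2, was lower in ET3x2 (-0.29 ± 0.07, adjusted p = 0.00349) and in ET3x1 (-0.32 ± 0.07, adjusted p = 0.00131). Vegfb, a ligand of VEGFR-1, was higher in ET3x1 (0.34 ± 0.11, adjusted p = 0.0170). By their tested probe sets, the ligand and receptor genes Vegfa and Kdr were thus both lower in each congenic strain. The dim Kdr probe set was called lower in neither strain.

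Of 7 tested genes of other VEGF and semaphorin receptors and ligands, 1 was higher and 3 lower in ET3x2 and 0 were higher and 4 lower in ET3x1. They included Sema3g, a class 3 semaphorin of endothelium (-0.75 ± 0.08 and -0.61 ± 0.08, in ET3x2 and ET3x1), Sema3c (-0.31 ± 0.06 and -0.24 ± 0.06) and the semaphorin co-receptor Plxna1 (-0.23 ± 0.06 and -0.24 ± 0.06). Of 3 tested TIE partners, Tie1, the orphan relative of TIE2, was lower in ET3x2 (-0.14 ± 0.05, adjusted p = 0.0440) and Angpt4, an angiopoietin, higher (0.18 ± 0.07, adjusted p = 0.0483). Ptprb, the phosphatase that restrains TIE2, was lower in ET3x1 (-0.30 ± 0.06, adjusted p = 0.000668), and within ET3x1 it was lower on high than on low salt (-0.38 ± 0.09, adjusted p = 0.00554).

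Of 13 tested junction partners of VE-cadherin and PECAM-1, 0 were higher and 6 lower in ET3x2, and 1 was higher and 4 lower in ET3x1. Tjp1, the scaffold ZO-1, was lower in both (-0.28 ± 0.08 and -0.36 ± 0.08), as was the scaffold gene Afdn (-0.30 ± 0.06 and -0.29 ± 0.06). The catenin gene Ctnna1 was lower in ET3x2 (-0.22 ± 0.05), and the junctional adhesion molecule gene Jam3 was lower in ET3x1 (-0.23 ± 0.06). Tubule cells also express the scaffold and catenin genes of this list. All 3 tested leukocyte adhesion genes were lower in ET3x2 and 2 of 3 in ET3x1. Among them Vcam1 differed by -0.43 ± 0.08 and -0.35 ± 0.08, and it was higher on high than on low salt over the 3 strains (0.30 ± 0.07, adjusted p = 0.00466), as was Icam1 (0.20 ± 0.04, adjusted p = 0.00303). The third was Podxl, which podocytes also express, at -0.37 ± 0.06 and -0.53 ± 0.06. Unlike the other 2, Podxl was called lower on high than on low salt over the 3 strains.

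Of 11 tested partners and effectors of nitric oxide synthase, 2 were higher and 4 lower in ET3x2, and 1 was higher and 2 lower in ET3x1. Gucy1a1, a subunit of the nitric oxide receptor guanylate cyclase, was lower in both (-0.40 ± 0.08 and -0.39 ± 0.08), and Nosip, which encodes a protein that binds the synthase, was higher in both (0.43 ± 0.10 and 0.34 ± 0.10). The caveolin genes Cav1 (-0.18 ± 0.06) and Cav2 (-0.29 ± 0.07) were lower in ET3x2, and over the 3 strains both were higher on high than on low salt (0.17 ± 0.05 and 0.31 ± 0.06). Of 9 tested endothelial transcription factors, 0 were higher and 4 lower in ET3x2, and 0 were higher and 5 lower in ET3x1. Ets1 and Ets2, whose products bind GGAA cores, were lower in both strains, Ets1 by -0.58 ± 0.08 and -0.38 ± 0.08 and Ets2 by -0.28 ± 0.07 and -0.27 ± 0.07. The hypoxia factor gene Epas1 (-0.40 ± 0.07 and -0.22 ± 0.07) and the Krüppel-like factor gene Klf4 (-0.26 ± 0.08 and -0.29 ± 0.08) were lower too. Of 8 tested further endothelial genes, 1 was higher and 2 lower in ET3x2 and 1 higher and 3 lower in ET3x1, with Ehd3, a marker of glomerular endothelium, at -0.50 ± 0.08 and -0.48 ± 0.08 and Tm4sf1 at -0.34 ± 0.05 and -0.42 ± 0.05.

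**Figure D5:**
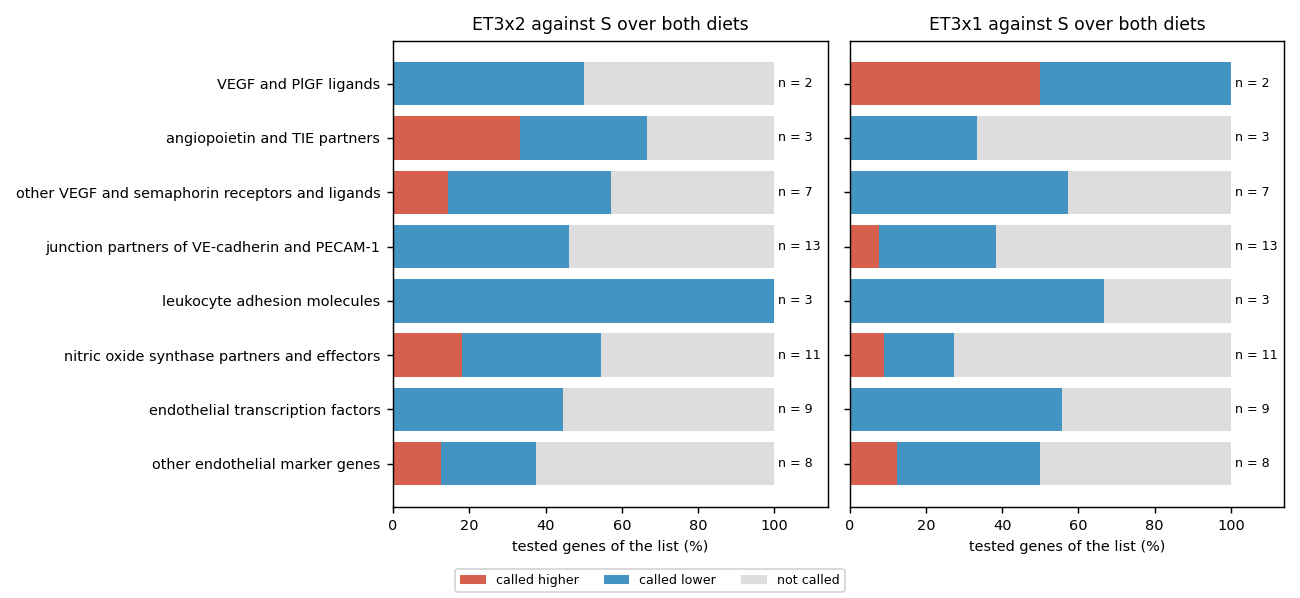
Share of the tested genes of each of the 8 lists (horizontal axis, percent) called higher, called lower or not called in ET3x2 against S (left) and ET3x1 against S (right); n is the number tested. Calls were mostly lower: 24 lower and 5 higher of 56 in ET3x2, and 22 lower and 4 higher in ET3x1.

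Salt over the 3 strains gave 6 higher and 3 lower of the 56 genes (16.1% called, beside 14.5% of all tested probe sets). ET3x2 against ET3x1 gave 2 higher and 2 lower (7.14% called, beside 11.1%), of which Ptprb (0.25 ± 0.06) and Sema3e (0.27 ± 0.07) were higher and Ocln (-0.22 ± 0.06) and Icam1 (-0.22 ± 0.06) lower in ET3x2. Markers of other cells were read beside these lists. Of 6 tested leukocyte genes 3 were higher than in S in each congenic strain (Cd74, Coro1a and Fcer1g), and Ptprc was dim. The leukocyte marker mean ran from 8.61 to 9.001 in ET3x2 and from 8.76 to 8.95 in ET3x1, against 8.46 to 8.84 in S. Of 4 tested smooth muscle and pericyte genes, Myh11 was lower in ET3x2 (-0.26 ± 0.04) and in ET3x1 (-0.37 ± 0.04), while Acta2 was higher in ET3x1 (0.23 ± 0.07). Of 4 proximal tubule genes, Lrp2 (-0.52 ± 0.06 and -0.36 ± 0.06) and Cubn (-0.35 ± 0.06 and -0.27 ± 0.06) were lower in ET3x2 and ET3x1, and Slc5a2 was higher in ET3x1 (0.25 ± 0.06). In ET3x2 Slc12a1 of the thick ascending limb (-0.51 ± 0.09) and Aqp3 of the collecting duct (-0.35 ± 0.08) were lower, and the erythroid gene Alas2 was higher (0.71 ± 0.27, adjusted p = 0.0488). The other gene of each of these lists, Umod, Aqp2 and Hbb, was not called in either strain. The part of these cells in the endothelial differences was not tested.

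Genes whose signal followed that of a called member over the 26 rats were ranked by Pearson's r within the same chip, as a description, and the 3 highest are named. For Kdr these were Afdn (r = 0.90, Spearman's rho = 0.91), Amotl1, of the angiomotin family (0.90 and 0.90), and Susd6 (0.89 and 0.89), of 6793 probe sets ranked. For Emcn they were Sun1, of the nuclear envelope (r = 0.89, rho = 0.87), the small heat shock protein gene Cryab (0.87 and 0.85) and Cdv3 (0.85 and 0.85). For Nrp1 1370570_at they were Trrap (r = 0.88, rho = 0.81), Larp4b (0.85 and 0.83) and Eif4ebp2 (0.84 and 0.81), of 6792. These are the highest of many values over rats that share strain, diet and array, so they are large by selection.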

How the data were processed

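The data were 52 arrays of 26 rats, 1 RAE230A and 1 RAE230B per rat, and each rat was 1 sample. Values were used as the log2 signals the authors deposited, 1 per probe set; the sources used here give no summary or normalization step behind them, and such steps could change every level. Gene symbols came from the platform annotation: a single symbol was listed for 12789 probe sets of RAE230A (312 with several, 2822 with none) and for 7570 of RAE230B (100 with several, 7663 with none). After 57 control probe sets per chip were left out, probe sets with a mean at or above their chip's median (7.51 on RAE230A and 6.38 on RAE230B) were tested, 15473 in all; 100 probe sets shared by the chips were tested on RAE230A only. Each chip was fitted with limma 3.58.1 in R 4.3.3, with 1 mean per strain and diet and an intensity trend (20 residual degrees of freedom). The 16 comparisons were drawn from that fit, and p-values were adjusted by Benjamini-Hochberg over both chips within each. The procedure was tested on simulated data. Single values were compared by two-sided exact permutation tests over rats. All probe sets of the members are given, whether called or not. The lists are read by the brightest probe set of each gene, with at most 3 called genes each way named. Not every called gene is named, and the counts hold all of them. The members and lists were chosen with earlier results of these data known. Alternatives were other normalization, centring, filters, spread model, RNA quality and spike-in covariates, and each rat left out. The beta-actin covariate and leaving out S rats 1 and 2 on high salt together were added after the data were seen. No pair of arrays held duplicate values.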

Additional observations from a re-analysis of the deposited data

Results flagged for a closer look

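In 66 sets of 4 or 5 rats (11 probe sets in 6 groups) a rat far from the others was looked for, and 2 were found, where chance gives about 1 in 20. Flt1 1377113_at stood at 4.82 in ET3x2 rat 2 on high salt, beyond the other 3 rats of that group, which lay within a very narrow range at this dim level. Emcn stood at 9.818 in ET3x1 rat 4 on low salt, above the other 3 rats, the nearest of which had 9.614. The salt response of Nrp1 1370570_at differed between ET3x1 and S by -0.9052 in limma (adjusted p = 0.0135), with -0.83 in ET3x1 and 0.08 in S.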

How the results depend on the processing

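Of 37 results on tested member probe sets, 20 kept their side of the threshold under every alternative run, without a change of sign beyond the standard error. Among them were the calls of Kdr in both strains over both diets and of Emcn in ET3x1 against S. The calls of Nrp1 1373577_at in ET3x2 and ET3x1 against S over both diets were also among them. Some uncalled differences near 0 changed sign within that error, such as Kdr in ET3x2 against ET3x1 (-0.06 to 0.02 with 1 rat left out). The causes of the changes below were not tested, except that a stricter filter tests fewer probe sets. The filter to the brightest 25% left Nrp1 1373577_at (68.2nd percentile) and Pecam1 (56.3rd) untested. The calls given next as lost with that filter were those of Nrp1 1373577_at. With the brightest 25% of probe sets, member probe sets called fell to 1 for ET3x2 against S over both diets, on low salt and on high salt, 1 for ET3x1 against S on low salt and 0 for ET3x2 against ET3x1, which quantile normalization brought to 2. With the Gapdh ratio as a covariate 0 were called for ET3x2 against ET3x1 over both diets and on high salt, for salt in ET3x1 and over the 3 strains, and for the salt response of ET3x1 minus S, and 1 for ET3x1 against S on high salt. The bioD minus bioC covariate left 0 for ET3x2 against ET3x1 over both diets and on high salt and for that salt response. The beta-actin ratio left 0 for salt over the 3 strains and turned the Kdr salt difference, which was not called, to 0.0414. Without S rats 1 and 2 on high salt, 0 were called for ET3x2 against S on high salt and 1 for salt over the 3 strains. When the probe sets of each gene were averaged, genes called were 2 for ET3x2 against S over both diets and on low salt (1 by the brightest), and 0 for ET3x2 against ET3x1 on high salt, salt in ET3x1 and the salt response of ET3x1 minus S. Leaving out 1 rat gave 0 to 1 for ET3x2 against ET3x1 over both diets and on low salt and for salt in ET3x2, 1 to 2 for ET3x2 against S on high salt, ET3x1 against S on low salt and salt in ET3x1, and 1 to 4 for salt over the 3 strains. Over all tested probe sets, calls for ET3x2 against ET3x1 were 1725, against 462 with the Gapdh ratio and 633 with bioD minus bioC, and for ET3x2 against S on high salt 658, against 25 without S rats 1 and 2. No paired analysis was possible because the replicate numbers were given in accession order and do not link rats of different groups. Signal over background limits the dim Flt1, Nos3 and second Kdr probe sets.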

Other observations

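Members were also compared within groups, by correlating each rat's deviation from its group mean over the 26 rats, for 15 pairs of tested probe sets (permutation tests with 100000 resamples, adjusted over the pairs). Kdr and Nrp1 1373577_at had r = 0.63 (permutation p = 0.00413, adjusted 0.0228; rho = 0.66, adjusted 0.0185), and 0.54 without the 2 rats farthest from the median. Nrp1 1370570_at and Emcn had r = 0.65 (permutation p = 0.00455, adjusted 0.0228; rho = 0.59, adjusted 0.0394), and 0.52 without 2 rats. Kdr and Emcn had r = 0.50 (permutation p = 0.0108, adjusted 0.0405; rho = 0.53, adjusted 0.0394), and 0.51 without 2 rats. Nrp1 1373577_at and Tek had r = 0.49 (permutation p = 0.00409, adjusted 0.0228; rho = 0.64, adjusted 0.0185), and 0.59 without 2 rats. Kdr and Tek had r = 0.49 (permutation p = 0.0178, adjusted 0.0534), which missed the threshold, although rho = 0.53 passed (adjusted 0.0394). The 2 Nrp1 probe sets had r = 0.33 (permutation p = 0.114, adjusted 0.243). Probe sets of one rat share RNA, and all of these but Tek, which is on RAE230B, also share an array. The part of RNA and array quality in these values was not tested.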
